A study of Caenorhabditis elegans with 2 samples.

Results

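A set of 7 axonal transport genes of Caenorhabditis elegans was examined for binding peaks of NHR-6, a nuclear receptor of the NR4A family. Of the 19973 protein-coding genes on the nuclear chromosomes, these 7 were unc-104, unc-116, klc-2, unc-16, unc-14, unc-76 and unc-51. They were selected by gene function together with measured values, because strong promoter peaks of unc-76, unc-14 and unc-16 in these same lists were already known. The counts over the 7 genes are therefore a description and were not tested. Of the 7, 6 encode kinesin subunits or kinesin-binding proteins, while unc-51 encodes a protein kinase that works with UNC-14.

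The data are peak lists from chromatin immunoprecipitation and sequencing of eGFP-tagged NHR-6 in whole L4 larvae of both sexes. Both biological replicates were of strain OP90, which carries the mutation unc-119(ed3) on chromosome III and the integrated transgene wgIs90. The labels give 1 group with 2 replicates, so no conditions could be compared. They describe the target as the eGFP fusion and name the antibody nhr-6. In whole animals a peak does not tell which cells bound the receptor, and a peak at a neuronal gene need not come from neurons. Read depth is unknown from peak lists.

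Axons are too long for diffusion to supply their far ends, so vesicles, mitochondria and cytoskeletal parts are carried along microtubules by motor proteins. Kinesins move cargo outward, and cytoplasmic dynein moves it back towards the cell body. Adaptor proteins join cargo to a motor or release a motor from its folded resting state, and kinases adjust these contacts. In C. elegans, mutants of many of these genes move poorly, which gave them the name unc, for uncoordinated.

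Thresholded NHR-6 peaks, those that passed the authors' test of agreement between replicates, lay close to the 5′ ends of 3 kinesin adaptor genes. None lay close to the 5′ ends of the motor genes unc-116 and unc-104. The adaptor peaks were already known when the genes were chosen, so this contrast is a description and was not tested. It did not extend to the other transport genes described further on. Among those, a thresholded summit from 1000 bp before to 200 bp after the 5′ end occurred in 2 of 9 kinesin genes. Such a summit occurred in 5 of 16 dynein and dynactin genes and in 5 of 29 adaptors, regulators and cytoskeletal genes. The adaptor genes unc-14, unc-16 and unc-76 each carried 1 thresholded peak within 250 bp upstream of the annotated 5′ end. The kinesin-1 heavy chain gene unc-116 and the kinase gene unc-51 carried theirs 1449 to 3219 bp upstream. The unc-116 summits, 1594 and 3219 bp upstream, were nearer to the 5′ end of another gene, R05D3.8, at 1559 and 66 bp. The light chain gene klc-2 carried 1 in an intron and 1 far upstream, beside another gene. The kinesin-3 gene unc-104 carried none.

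The sequences at 5 of the genes are shown for comparison of their composition and short motifs. Each is the 101 bases centred on a summit in build ce11 (the WBcel235 assembly of RefSeq), written 5′ to 3′ on the strand of the gene. Capitals mark every match, on either strand, to the 9 motifs spelled out further on. The unc-16 sequence is chrIII:9546178-9546278 on the plus strand, around the summit 30 bp upstream of the gene. The unc-76 sequence is chrV:15071465-15071565 on the plus strand, 245 bp upstream. The unc-51 sequence is chrV:20005884-20005984 on the minus strand, 1449 bp upstream. The klc-2 sequence is chrV:5580692-5580792 on the minus strand, 670 bp inside the gene. The unc-104 sequence is chrII:7003198-7003298 on the plus strand, at the strongest peak of that gene in the pooled list, 8261 bp inside the gene and below the threshold.
unc-16: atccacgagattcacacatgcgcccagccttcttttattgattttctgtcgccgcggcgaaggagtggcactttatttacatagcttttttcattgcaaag
unc-76: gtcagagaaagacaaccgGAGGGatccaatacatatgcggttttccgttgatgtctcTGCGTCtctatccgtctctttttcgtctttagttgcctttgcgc
unc-51: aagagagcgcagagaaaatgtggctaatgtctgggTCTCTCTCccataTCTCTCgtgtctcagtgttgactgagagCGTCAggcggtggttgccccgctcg
klc-2: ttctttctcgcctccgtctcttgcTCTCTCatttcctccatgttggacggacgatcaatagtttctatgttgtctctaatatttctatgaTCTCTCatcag
unc-104: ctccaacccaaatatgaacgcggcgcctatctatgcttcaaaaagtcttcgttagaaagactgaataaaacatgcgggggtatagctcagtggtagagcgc
The unc-51, unc-76 and klc-2 sequences hold capitals, and those of unc-16 and unc-104 hold none.

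Peaks were assigned by their summits to 3 windows per gene: the promoter window, which takes in 1000 bp before and 200 bp after the annotated 5′ end, the introns, and the 5 kb upstream, which overlaps the promoter window. The thresholded list held 2717 distinct intervals, of which 1 is entered 4 times, and was the same as the strongest 9.07% of the 30000 pooled peaks. The relaxed lists, which include background by design, held 30000 peaks for the pooled replicates, 26801 for replicate 1 and 30000 for replicate 2. Signal values and the ranks made from them are the authors' own values per peak, with rank 1 the strongest, and the sources used here do not give their scale. Signals of separate lists are therefore given side by side and are not compared with one another. The thresholded signals ran from 27.5 to 1433 with a median of 39.1, and the pooled ones from 4.13 to 1433 with a median of 7.98.

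In the thresholded list, 3 of 7 genes had a promoter summit, against 10.5% of all 19973 genes. An intron summit occurred in 1 of 7 (klc-2), against 2.21% of all genes, and a summit within 5 kb upstream in 6 of 7, against 19.8%. Any of the 3 windows held a summit in 6 of 7, against 21.7%. These contrasts took part in choosing the genes, so nothing is read from the counts. The promoter and upstream windows have the same size for every gene, while the intron window does not: the median intron sequence was 4944 bp for the 7 genes and 722 bp over all genes. The part of intron length in the intron count was not tested.

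**Figure D1:**
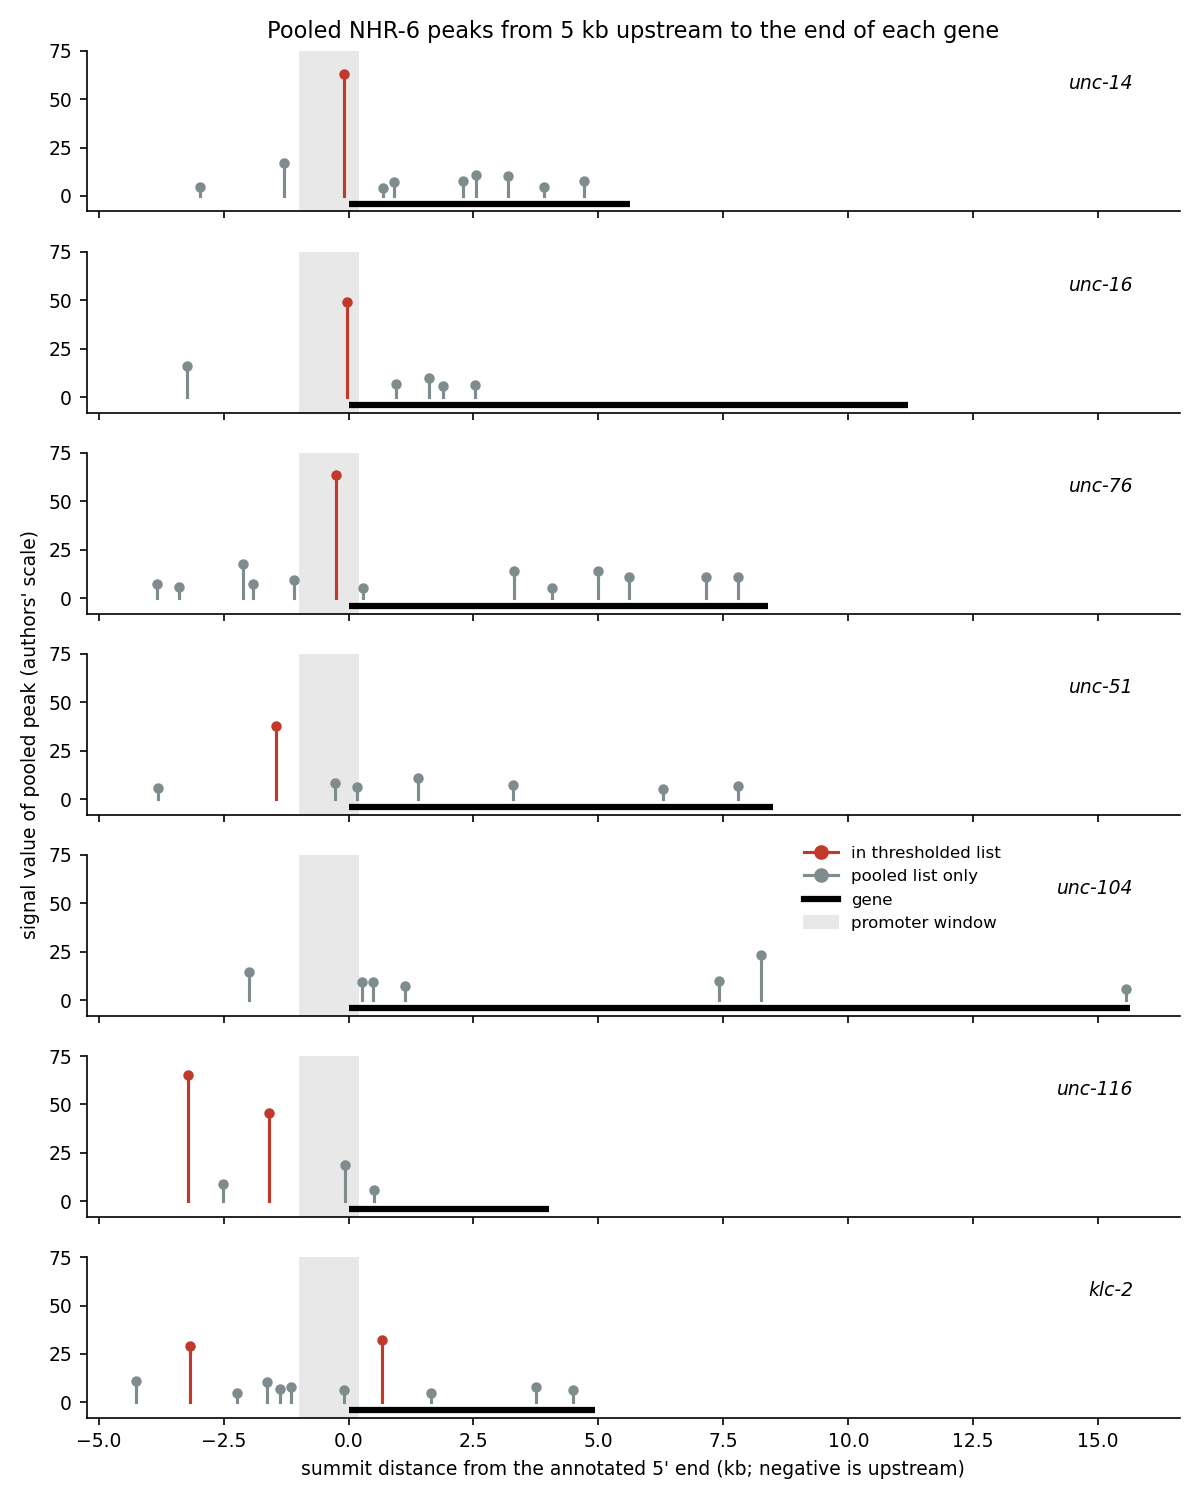
Pooled peaks from 5 kb upstream to the end of each of the 7 genes, with summit distance from the annotated 5′ end in kb on the x axis (negative is upstream) and the authors' signal value on the y axis. Red marks the 8 peaks of the thresholded list; those of unc-14, unc-16 and unc-76 fall in the grey promoter window, and unc-104 has none.

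The relaxed lists placed peaks near nearly all 7 genes, as they did near many genes. In the pooled list 6 of 7 had a promoter summit (41.0% of all genes), 6 an intron summit (23.3%) and 7 one within 5 kb upstream (64.4%). In replicate 1 the promoter, intron and upstream counts were 5, 6 and 6, against 38.8%, 22.3% and 66.4% of all genes. In replicate 2 they were 5, 6 and 7, against 41.9%, 24.1% and 70.6%. The gene without a promoter summit in any list was unc-104, and klc-2 had one in the pooled list only. Per kb of gene and 5 kb upstream, the 7 genes held 0.339 (unc-104) to 1.11 (klc-2) pooled peaks, with a median of 0.593. Over all genes the median was 0.244, with quartiles of 0 and 0.478. The values of unc-104 and unc-16 (0.371) lay between those quartiles and the others above. The 7 genes were chosen with peaks known and are long, with a median of 8393 bp against 2027 bp over all genes. The part of gene length in these counts was not tested.

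The motor genes come first by role. UNC-104 is the kinesin-3 motor that carries synaptic vesicle precursors down the axon. Its gene spans chrII:6994987-7010625 on the plus strand, 15639 bp, the longest of the 7. Its strongest pooled peak lay in an intron 8261 bp inside the gene, with a signal of 23.1 and rank 3619 of 30000, outside the thresholded list. In replicate 1 the matching peak had a signal of 8.15 and rank 6436 of 26801, and in replicate 2 a signal of 12.1 and rank 3778 of 30000. The 3 lists placed this summit within a few bases of the same position, from 8253 to 8264 bp inside the gene. The summit sat 25 bp before the 5′ end of a transfer RNA gene at chrII:7003273-7003344 on the plus strand and 184 bp from that of a second one, both inside the unc-104 gene. This was looked for after the position was known. Within 100 bp of a transfer RNA 5′ end lay 1.18% of pooled summits and 3.79% of thresholded ones, and no other pooled summit near the 7 genes did.

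Upstream of unc-104 the pooled list had 1 peak, 1986 bp away, with a signal of 14.5 and rank 6875. It was matched in replicate 2 at 1975 bp (signal 11.7, rank 4009), while replicate 1 listed no peak in the 5 kb upstream. Nearest to the 5′ end were intron peaks 263 and 498 bp inside the gene, with signals of 9.26 and 9.17, not far above the pooled median of 7.98. Of the 7 genes, unc-104 was the one with no thresholded peak in any of the 3 windows.

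UNC-116 is the heavy chain of kinesin-1, the motor subunit that walks on microtubules. Its gene lies at chrIII:8351164-8355174 on the minus strand and, with 4011 bp and 841 bp of introns, is the shortest of the 7. It had 2 thresholded peaks. The farther one, at chrIII:8358367-8358447 and 3219 bp upstream, had the highest signal of the 8 peaks, 65.3, and rank 322 in the thresholded list. Its signal was 27.9 (rank 668) in replicate 1 and 33.4 (rank 384) in replicate 2. That summit is nearer to other genes: 66 bp upstream of R05D3.8 and 229 bp upstream of rfp-1, which run in opposite directions from it.

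The nearer unc-116 peak, 1594 bp upstream, had a signal of 45.4 and rank 954. In replicate 1 it had a signal of 24.5 and rank 949, and in replicate 2 a signal of 20.3 and rank 1392, with summits 3 bp apart. It lay between genes, 119 bp beyond the 3′ end of R05D3.8, in the stretch between that end and the 5′ end of unc-116. Replicate 2 listed a further peak 1354 bp upstream, with a signal of 18.0 and rank 1857. The promoter window of unc-116 held only weaker peaks. The pooled one, 70 bp upstream, had a signal of 18.9 and rank 4814, and the replicates placed theirs 150 bp upstream (signal 5.87, rank 10033) and 28 bp inside the 5′ UTR (signal 11.2, rank 4261).

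KLC-2 is a kinesin-1 light chain, the subunit that binds cargo and adaptors. Its gene spans chrV:5576472-5581412 on the minus strand. The thresholded peak at chrV:5580584-5580899, 670 bp inside the gene, had a signal of 32.1 and rank 2050 in the thresholded list. Its signal was 9.37 (rank 5317) in replicate 1 and 21.8 (rank 1183) in replicate 2, so it was among the strongest peaks of replicate 2, counted to the length of the thresholded list, but not among those of replicate 1. The summit is intronic in the longer transcripts. Of the 5 annotated transcripts, 3 begin further in, 1207 to 1213 bp downstream of it, so for them this intron is upstream sequence.

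The other klc-2 peak, at chrV:5584434-5584749 and 3180 bp upstream, had a signal of 29.0 and rank 2488, near the lowest thresholded signal of 27.5. Its signals were 12.4 (rank 3547) and 10.8 (rank 4507) in replicates 1 and 2, outside the strongest peaks of either, counted in the same way. It lay 249 bp upstream of pas-6, which encodes a proteasome subunit, and 541 bp upstream of CD4.11. At the klc-2 5′ end itself the pooled list had only a summit 94 bp upstream with a signal of 6.39 and rank 19593, below the list's median, and neither replicate listed one in the promoter window.

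The adaptor genes each had 1 thresholded peak, just upstream of the annotated 5′ end, and several weaker peaks in the pooled list. UNC-16, the worm protein of the JIP3 family, is a scaffold that links kinesin-1 to vesicles and to a stress-activated kinase cascade. Its gene spans chrIII:9546258-9557450 on the plus strand and has 17 annotated transcripts. The thresholded peak at chrIII:9546070-9546385 had its summit 30 bp upstream, with a signal of 48.9 and rank 788 in the thresholded list. In replicate 1 the signal was 25.2 (rank 886) with the summit 63 bp inside the gene, and in replicate 2 it was 32.4 (rank 426) with the summit 68 bp upstream.

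The 2 replicate summits at unc-16 were thus 131 bp apart, on either side of the annotated 5′ end. Gaps at least as wide occurred in 5.41% of the 2681 thresholded peaks matched in both replicates, whose median gap was 33 bp. The pooled summit lies inside an exon of ZK1098.13, a noncoding RNA gene on the opposite strand whose 5′ end is 112 bp away. The peak lies 30 to 485 bp upstream of the starts of 11 of the 17 unc-16 transcripts, and the other 6 begin at least 2563 bp further along. The next pooled peak was 3229 bp upstream with rank 6052, and intron peaks reached no more than 6.80.

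UNC-14 is a protein with a RUN domain that binds the kinase UNC-51 and joins kinesin-1 through its light chain. Its gene, 5633 bp on the minus strand of chromosome I, starts 4501 bp from the next coding gene upstream, the longest such stretch among the 7. The thresholded peak lay 88 bp upstream with a signal of 63.2 and rank 358 in the thresholded list. In replicate 1 its signal was 15.5 (rank 2471, summit 146 bp upstream) and in replicate 2 it was 44.5 (rank 139, summit 131 bp upstream). The ranks differed 17.8-fold between the replicates, the widest of the 8 peaks. A difference at least that wide occurred in 2.24% of the 2681 matched peaks.

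In replicate 1 another peak, 1294 bp upstream of unc-14, was as strong as that at the promoter, with a signal of 15.6 and rank 2447. Replicate 2 listed no peak in the 5 kb upstream other than the promoter one, and the pooled list gave the distal peak a signal of 16.9 and rank 5628. The distal peak was thus seen in 1 replicate. No 5′ end of another annotated gene lay within 1000 bp of the promoter summit.

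UNC-76, the worm protein of the FEZ family, is a kinesin-1 adaptor needed for axons to keep to their bundles. Its gene spans chrV:15071760-15080152 on the plus strand. The thresholded peak at chrV:15071357-15071672 had its summit 245 bp upstream, with a signal of 63.8 and rank 348 in the thresholded list. In replicate 1 the signal was 38.5 (rank 236, summit 254 bp upstream) and in replicate 2 it was 23.9 (rank 970, summit 229 bp upstream). The order of the replicates was opposite to that at unc-14: unc-76 ranked higher in replicate 1 and unc-14 in replicate 2. No 5′ end of another annotated gene lay within 1000 bp, and 2 further unc-76 transcripts start 358 and 361 bp downstream of the summit. The remaining pooled peaks were far weaker, the highest at 2114 bp upstream with a signal of 17.4 and rank 5405, then 3304 bp inside the gene with a signal of 14.2.

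UNC-51, the worm kinase of the ULK family, acts in autophagy and in axon growth, and phosphorylates UNC-14. Its gene spans chrV:19995986-20004485 on the minus strand. The thresholded peak at chrV:20005776-20006091 lay 1449 bp upstream, with a signal of 37.6 and rank 1478, just under the thresholded median of 39.1. Its signals were 18.4 (rank 1796) in replicate 1 and 15.1 (rank 2574) in replicate 2, among the strongest peaks of both. It is intergenic, and the next 5′ end on its other side, that of Y60A3A.23, is 1836 bp away. In the promoter window the pooled list had summits of signal 8.28 at 261 bp upstream and 6.31 at 179 bp inside, replicate 1 had 12.5 (rank 3519) at 295 bp upstream, and replicate 2 had 3.82 (rank 20063) at 35 bp inside.

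Set beside the 2097 genes with a thresholded promoter peak, the strongest promoter signals of unc-76 and unc-14 lay above the upper quartile of 55.7 and that of unc-16 between the median of 41.9 and that quartile. The strength of these peaks took part in choosing the genes, so their place among the 2097 is only a description. The promoter peaks of these 3 genes were each assigned to 1 coding gene alone. Over all 2097 genes, 51.4% had only promoter peaks that also fell in the promoter window of another coding gene, a comparison chosen after the positions were seen. Among the 8 peaks, 5 had their own transport gene as the nearest coding 5′ end and 3 were nearer to another gene.

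The replicates ordered these 8 peaks differently, as they did the whole list. Replicate 1 ranked 4 of the 8 higher and replicate 2 the other 4, and 6 of the 8 were among the strongest peaks of both, counted to the length of the thresholded list. The fold between ranks was 1.27 to 4.49 for the 7 peaks other than that of unc-14, and the quartiles over 2681 matched peaks were 1.49, 2.33 and 4.33. With the same number of the strongest peaks from replicate 1 alone, 3 of 7 genes had a promoter summit (9.99% of all genes), and with those of replicate 2 alone 3 of 7 (9.91%). Both times these were unc-14, unc-16 and unc-76. Their promoter peaks were known when the genes were chosen, and the thresholded list was itself cut on agreement between these replicates. The recurrence was thus largely set in advance and is only a description.

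**Figure D2:**
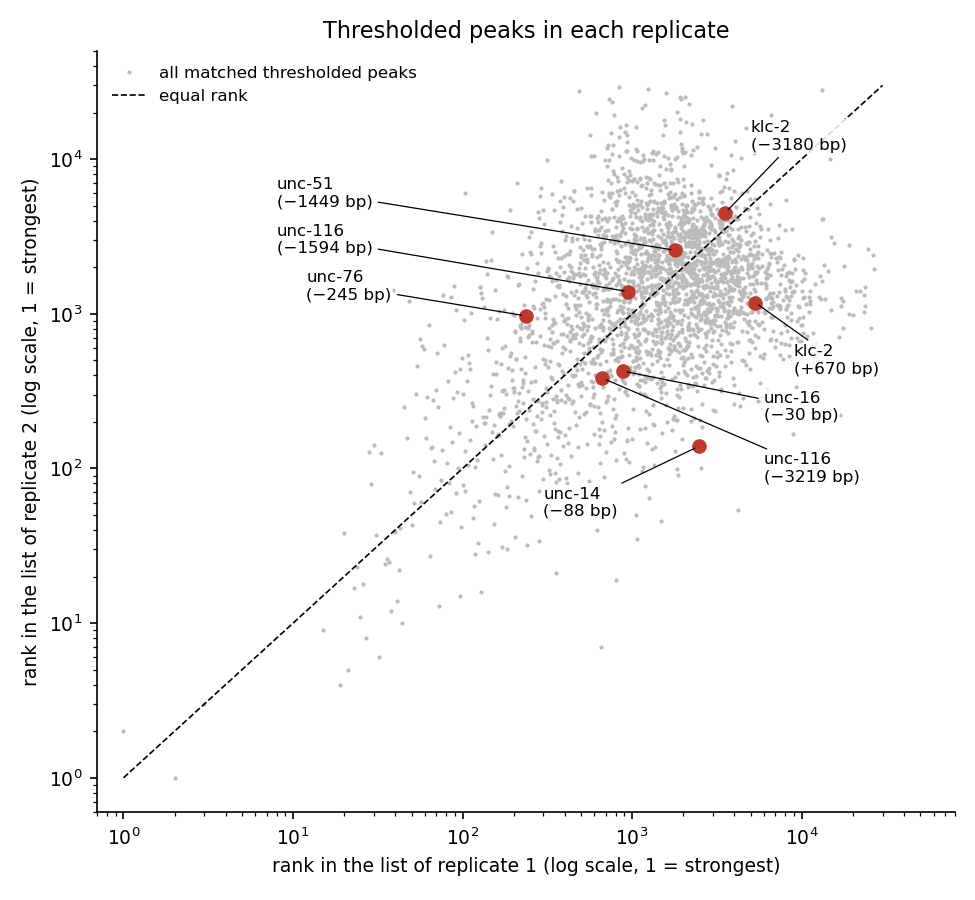
Rank of each matched thresholded peak in the lists of replicate 1 (x axis) and replicate 2 (y axis), both on log scales with 1 the strongest; grey points are all 2681 matched peaks and red points the 8 peaks at transport genes, labelled with the distance of the pooled summit from the 5′ end. Of the 8, the unc-14 peak lies farthest from the dashed line of equal rank (ranks 2471 and 139), and the klc-2 peak 3180 bp upstream has ranks 3547 and 4507.

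Base composition at 7 of the 8 summits was near the middle of the list. GC content within 50 bp of the summit was 41.6% to 55.4%, and over all thresholded summits it was 45.3% ± 7.88 (SD over summits) with quartiles of 39.6% and 50.7%. Of the 8, 7 lay between those quartiles. The exception was the unc-51 peak at 55.4%, above the upper quartile. Its flanks 300 bp to either side had 20.8% and 30.7%.

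**Figure D3:**
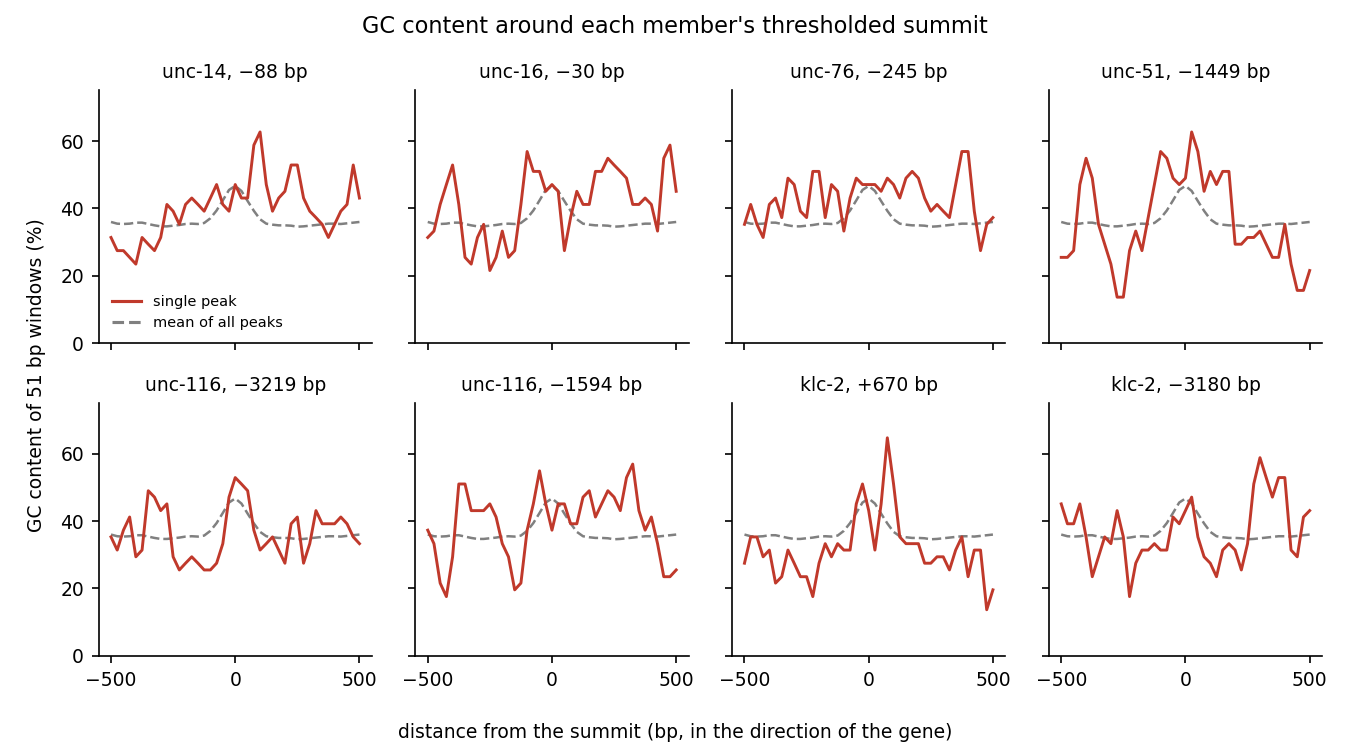
GC content in 51 bp windows against distance from the summit, oriented along the gene, for each of the 8 peaks (red) and as the mean of all thresholded peaks (grey dashes). The mean rises at the summit, and the single profiles are uneven, with the unc-51 peak at 55.4% GC within 50 bp of its summit.

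A set of 9 short motifs was searched on both strands within 50 bp of each summit. GAGAGA, a GA repeat, was found at 4 of the 8 summits: those of unc-14, unc-51, klc-2 in its intron and unc-116 at 3219 bp upstream. It was found at 27.3% of all thresholded summits and in 6.07% of windows 300 bp to either side. TGACG occurred at unc-14 and unc-51, against 19.6% of summits and 10.1% of flanking windows. CCCTC occurred at 2 of the 8 summits, 1 of them that of unc-76, against 16.2% and 6.42%. GACGCA occurred at unc-76 alone, against 16.5% and 1.86%.

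The other 5 motifs were found at none of the 8 summits. They include AAAGGTCA, the site that NR4A receptors bind as monomers, held by 0.735% of all summits and 0.257% of flanking windows, and its core AGGTCA, held by 3.71% and 2.21%. The rest were TGANTCA (7.24% of summits), GGGCGG (5.48%) and GCGCGC (7.61%). The motifs AAAGGTCA and AGGTCA overlap each other, and the TGACG in unc-51 stands apart from its GA repeats. Summits of unc-16 and of klc-2 at 3180 bp upstream held none of the 9. A match is only a run of letters, and its absence says only that those letters are not in this window.

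Other genes of the transport machinery gave a wider view. Of 55 listed, 54 were found in the annotation, and 12 of these (22.2%) had a thresholded promoter summit, beside 10.5% of all genes. An intron summit occurred in 3 (5.56%, beside 2.21%), one within 5 kb upstream in 21 (38.9%, beside 19.8%), and any of the 3 in 23 (42.6%, beside 21.7%). This list was drawn up with earlier results known, and the difference from all genes was not tested. Of the 12 genes with promoter peaks, 8 had only peaks that also fell in the promoter window of another coding gene.

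By class, promoter summits occurred in 2 of 9 other kinesin genes, 5 of 16 dynein and dynactin genes and 5 of 29 adaptors, regulators and cytoskeletal genes. The strongest was that of klc-1, the other kinesin light chain gene, with a signal of 77.6 and rank 189, 770 bp upstream and also in the window of let-70. The kinesin-2 motor gene klp-11 had one of 29.7, near the lower end of the list and also in the window of F20C5.11. Intron or upstream peaks occurred at osm-3 and klp-6, motors of ciliated neurons, and at kap-1, the kinesin-2 accessory subunit gene.

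Of the dynein motor, the light chain gene dlc-1 had a promoter peak of signal 72.0 and rank 239, the light intermediate chain gene dli-1 one of 36.7, and the intermediate chain gene dyci-1 peaks of 39.4 and 29.7. Dynactin, which couples dynein to cargo, had promoter peaks at dnc-1 (46.0) and dnc-2 (29.5). A stronger peak 3015 bp upstream of dnc-1, with a signal of 99.2 and rank 75, fell in the promoter window of lgg-2. The dynein adaptor gene bicd-1 had a peak only far upstream. The promoter peaks of dlc-1, dli-1, dnc-1 and dnc-2 also fell in the promoter window of another coding gene, for dlc-1 that of nduf-2.2.

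Among adaptors and regulators, cdk-5, which encodes a cyclin-dependent kinase of neurons, had a promoter peak of 65.1 (rank 329) assigned to it alone and an intron peak of 33.9. Promoter peaks also occurred at sam-4 (53.4), a gene for lysosome and vesicle precursor transport, atg-9 (42.8), for an autophagy membrane protein, syd-2 (40.4), for the liprin-alpha scaffold, and mtx-1 (31.1), for a mitochondrial outer membrane protein. Those of sam-4 and mtx-1 also fell in the promoter window of another coding gene. Peaks outside the promoter window occurred at trak-1 (67.2), the mitochondrial adaptor gene, ric-7 (47.9), arl-8 (41.9), dlk-1 (39.6), unc-33 (36.7), aex-3 (29.6) and unc-70 (rank 2346). The unc-33 summit, in an intron 8001 bp inside the gene, also lay in the promoter windows of a transfer RNA gene and a noncoding RNA gene. Among these transport genes the promoter signals of unc-14 and unc-76 were thus close to that of cdk-5 and below those of klc-1 and dlc-1. The klc-1 and dlc-1 peaks, however, also fell in the windows of other coding genes.

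**Figure D4:**
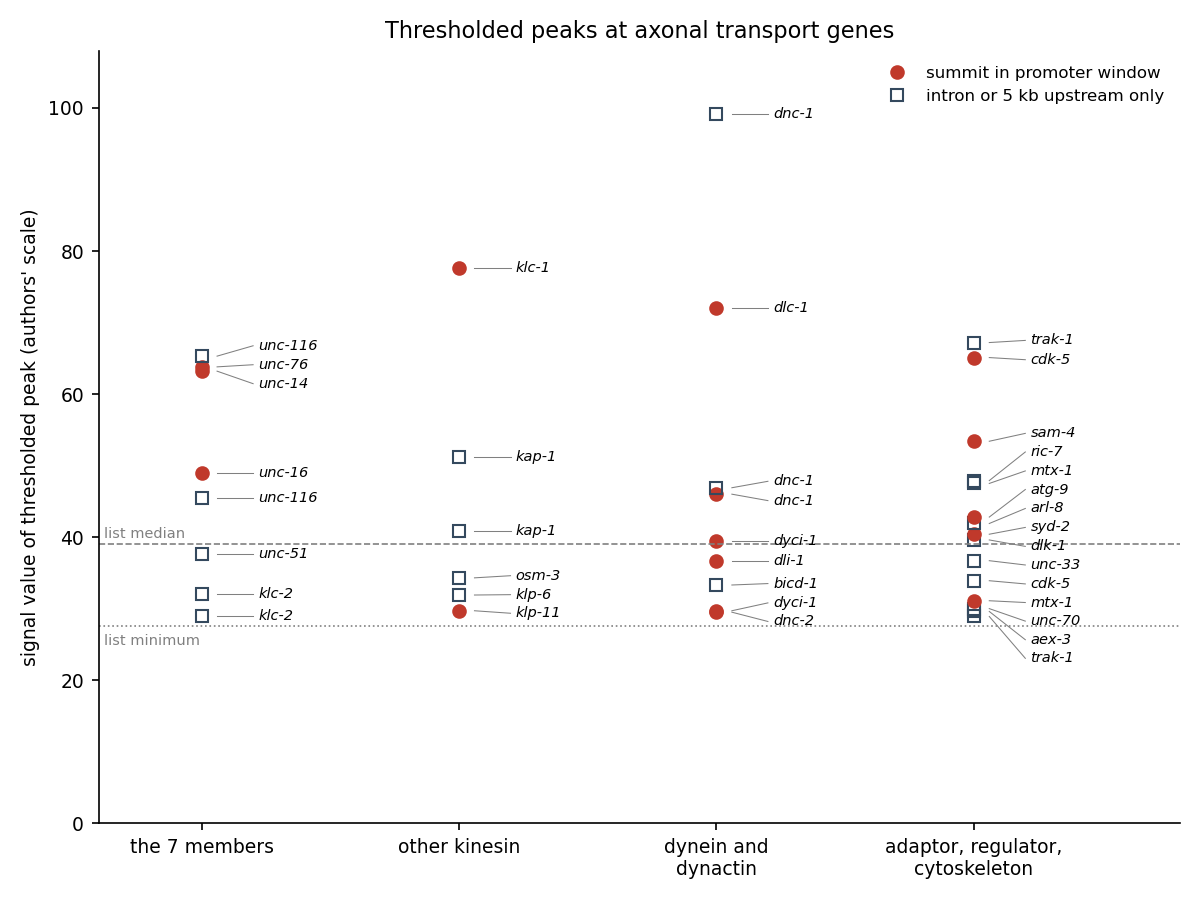
Signal of every thresholded peak at the 7 genes and at the other transport genes by class, on the authors' scale, with filled red circles for summits in the promoter window and open squares for summits in an intron or 5 kb upstream only. The dashed and dotted lines are the median (39.1) and minimum (27.5) of the thresholded list, and the highest value is 99.2, upstream of dnc-1.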

How the data were processed

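Peaks came from the deposited ce11 lists of 1 group with 2 biological replicates named in the labels: a relaxed list for each replicate, a relaxed pooled list and, derived from these, a list cut at an irreproducible discovery rate, per the deposited text listings. Each deposited peak carries the authors' signal value and a summit offset, in narrowPeak column order; the sources used here do not give the scale of the signal, the aligner or the peak caller. The ce10 lists were not used and no coordinates were converted. The control library and signal tracks were not analysed here.

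Gene models were those of Ensembl release 115 for WBcel235, and sequences were read from the RefSeq genome of that build. A peak was placed by its summit, a replicate match needed 1 bp of overlap and took the nearest summit, and introns excluded every exon of the gene. Window assignment was checked on simulated positions. Python 3.11.15, numpy 2.4.6, scipy 1.17.1 and matplotlib 3.10.9 were used. No test was run: the 7 genes, the lists and the motifs were chosen with earlier results of these data known. The genes named were the 7 and every other listed transport gene with a thresholded summit in a window; neighbours were named from position. Alternatives changed the number of peaks, the list, the windows, the 5′ end, the intron definition and the replicate. The share of promoter peaks assigned to 2 coding genes and the distance to transfer RNA genes were added after the positions were seen. The 1 listed gene not found in the annotation was left out. No per-sample column was left unmapped. Sequences at the unc-116 summits are not reported here.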

Additional observations from a re-analysis of the deposited data

How the results depend on the processing

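Thresholded promoter summits occurred at 3 of the 7 genes, and at 6 with all pooled relaxed peaks and 5 where the window reached 2000 bp upstream; for the other transport genes the 12 became 38 with all pooled relaxed peaks. The single intron gene, klc-2, became 0 with the stronger 50% of the thresholded peaks and 0 to 1 with either replicate left out. Pairs of a motif and a promoter summit that holds it at least once numbered 4 over the 3 summits, and 10 within 100 bp. All other alternatives run for these counts stayed within 1.5 times of the reported value (27 values). With either replicate left out, ranks ran from 139 to 2471 for the unc-14 promoter peak, 426 to 886 for unc-16 and 236 to 970 for unc-76. No paired analysis was possible because there is 1 group. The relaxed lists include background and depth is unknown, so the absence of a peak at unc-104 is a statement about these lists.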
